A study of Homo sapiens with 4 samples.

Results

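The lysosome and autophagy genes described here are 41 human genes chosen by symbol: proteins of the lysosomal membrane, lysosomal hydrolases, subunits of the vacuolar proton pump, the transcription factors TFEB and TFE3, and the core machinery of autophagy. All 41 were found by their GENCODE 29 symbol among the 16292 transcripts listed in at least 1 library, each as 1 transcript. Ribosome footprints, the mRNA fragments that translating ribosomes shield from nuclease, had been sequenced from HEK293, a long-established cell line of human embryonic kidney origin. There were 4 groups with 1 library each: the RPL4 mutant with erythromycin, the RPL4 mutant without erythromycin, wild type with erythromycin and wild type without erythromycin. RPL4 encodes a large-subunit ribosomal protein that reaches into the peptide exit tunnel, and erythromycin is a macrolide antibiotic that binds that tunnel in bacterial ribosomes. The protocols speak of stable lines that carry GFP, wild type L4 or a Δloop mutant, of lentiviral shRNA against RPL4 or a scramble control, and of the elongation and initiation inhibitors CHX and LTM. The labels leave out which of these each library had, the dose of erythromycin and whether a line was 1 clone.

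Lysosomes are acidic organelles in which hydrolases break down material delivered by endocytosis and autophagy. The V-ATPase, a proton pump with a membrane-embedded V0 sector and a cytosolic, ATP-hydrolysing V1 sector, acidifies them. In autophagy, a membrane forms under control of the ULK1 and Beclin 1 complexes, ubiquitin-like proteins of the ATG8 family are attached to it, and receptors such as SQSTM1 (p62) bind both cargo and ATG8 proteins before fusion with the lysosome. The MiT/TFE factors TFEB and TFE3 drive transcription of many of these genes through a short promoter element with the core CACGTG.

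The libraries held 993461 reads in the mutant with erythromycin, 604506 in the mutant without it, 2555613 in wild type with it and 2965243 in wild type without it. Depth set the precision: the median member had 67, 36, 148 and 188.5 reads in that order of libraries. With no RNA-seq library in the set, mRNA amount and translation per mRNA cannot be told apart. RPL4 itself had 1439 and 1707 RPKM (reads scaled by coding length and library total) in the mutant with and without erythromycin, against 2586 and 2515 RPKM in wild type with and without it, and fell by 0.72 on the log2 scale over both treatments (SE 0.150, limma, adjusted p = 0.018). Footprints of an RPL4 transgene would be counted under the same symbol, so this checks the labels only in part. Of the markers used for HEK293, KRT8, KRT18 and VIM had 202 to 1100 RPKM, while NEFM, PAX2 and LHX1 had at most 7.42 RPKM. The white blood cell markers PTPRC and LYZ and the fibroblast marker COL1A2 were listed in no library, and ALB and HBB had at most 1 read in any.

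Each difference is a log2 ratio of RPKM plus 1, centred on the median of the 9612 transcripts that averaged at least 5 RPKM. Square brackets hold a 95% counting interval made from the recovered reads without the added 1 RPKM, which covers counting error only and not the spread between cultures. No group had a second library, so no difference between 2 libraries has a replicate check, and none carries a p-value. Of the 41 genes, 40 passed the filter, and TFEB, with a mean of 4.02 RPKM, did not. Among all transcripts kept with recovered reads the median was 40 and 23 reads in the mutant with and without erythromycin. In wild type with and without it that median was 91 and 108 reads. The members, at the medians given above, had more reads. Shares of all transcripts set beside member counts are therefore not matched for depth.

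Some of the sequences explain how far the reads of a gene can be its own. The 4 ATG8 family members encode similar small proteins, and their coding sequences were 53.8% to 75.1% identical over the aligned bases, gaps left out. The first 60 coding bases, from the GENCODE 29 transcripts on GRCh38 with the start codon in capitals, show where they differ:
GABARAP: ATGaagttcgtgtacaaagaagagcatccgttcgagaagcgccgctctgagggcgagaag
GABARAPL1: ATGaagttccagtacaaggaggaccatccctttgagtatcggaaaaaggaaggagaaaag
GABARAPL2: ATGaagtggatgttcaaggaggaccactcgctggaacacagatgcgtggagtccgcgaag
MAP1LC3B: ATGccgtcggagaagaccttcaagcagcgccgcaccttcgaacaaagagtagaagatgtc

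Family members shared no stretch of footprint size with each other, but other annotated genes and pseudogenes did. Of all windows of 28 bases in the coding sequence, 86.3% of those of MAP1LC3B occurred also in another gene (chiefly MAP1LC3B2, which was listed in no library), as did 80.4% of those of GABARAP and 18.1% of those of GABARAPL1, against 0% for GABARAPL2. The same measure was 97.6% for CTSD, 38.4% for TPP1, 94.3% for ATP6V0C, 45.2% for ATG12, 41.3% for ATP6V1E1 and 33.6% for HEXA. Whether the other genes overlap these members on the genome was not checked. It was 0% for SQSTM1, PSAP, LAMP1, LAMP2, NPC2, ATP6V1A, ATP6V0D1, ATG3, ULK1 and BECN1. How the authors' counting treated shared reads and strand is not stated in the labels, so the values of genes with high shares are uncertain to that extent.

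The promoters bear on the factors TFEB and TFE3. Of the 41 members, 33 had an entry in the RefSeq promoter table (GRCh38.p14, 250 bases before to 50 after the gene start), with 43 promoters in all. CACGTG, which reads the same on both strands, occurred in 7 of the 43 promoters (16.3%), each of a different gene, and in 7.26% of all 35116 promoters. The longer TCACGTGA, which contains CACGTG, occurred in 5 of the 43 (11.6%) and in 0.980% of all promoters. TCATGTGA, a variant searched on both strands that cannot coincide with the others, occurred in 2 of the 43 (4.65%), those of ATP6V0C and TPP1, and in 1.00% of all. The first match of each gene, with 20 bases on each side and printed along the gene's strand, is shown because these words contain or resemble the element bound by TFEB and TFE3. Capitals mark the word and any further CACGTG nearby, and for TPP1 a neighbouring core of the variant on the other strand:
MCOLN1 (chr19:7522563-7522608, plus strand): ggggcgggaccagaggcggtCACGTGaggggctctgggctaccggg
ATG3 (chr3:112561955-112562000, minus strand): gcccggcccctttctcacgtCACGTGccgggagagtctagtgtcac
ATP6V0B (chr1:43974883-43974928, plus strand): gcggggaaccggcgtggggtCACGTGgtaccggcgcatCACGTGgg
ATP6V0D1 (chr16:67481191-67481236, minus strand): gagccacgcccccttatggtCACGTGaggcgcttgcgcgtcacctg
CTSA (chr20:45891273-45891318, plus strand): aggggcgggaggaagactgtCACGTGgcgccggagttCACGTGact
CTSD (chr11:1763949-1763994, minus strand): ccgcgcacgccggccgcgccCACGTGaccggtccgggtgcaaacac
LAMP1 (chr13:113297027-113297072, plus strand): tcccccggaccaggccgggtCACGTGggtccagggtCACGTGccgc
ATP6V0C (chr16:2513903-2513950, plus strand): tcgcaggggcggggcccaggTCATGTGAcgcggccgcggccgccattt
TPP1 (chr11:6619416-6619463, minus strand): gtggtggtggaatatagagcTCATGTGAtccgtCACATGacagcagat

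The members spanned a wide range of footprint density. GABARAP was the highest, with a mean of 1179 RPKM over the 4 libraries, followed by the V0 subunits ATP6V0E1 (404 RPKM) and ATP6V0B (336 RPKM) and by GABARAPL2 (327 RPKM). The lowest were ATG7 (11.1 RPKM), MCOLN1 (9.92 RPKM) and TFEB. RPKM divides by the coding length of the transcript listed for each gene, so this order depends on which transcript was listed. Together the 41 genes took 0.372% of all reads in the mutant with erythromycin (95% Wilson interval 0.360% to 0.384%) and 0.379% in the mutant without it (0.364% to 0.395%), against 0.412% in wild type with it (0.404% to 0.420%) and 0.399% in wild type without it (0.391% to 0.406%). The intervals did not overlap in the erythromycin pair and did overlap in the pair without the drug. Without SQSTM1 alone the share was 0.352% (0.341% to 0.364%) in the mutant with erythromycin, against 0.369% (0.362% to 0.376%) in wild type with it, and the intervals overlapped.

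**Figure D1:**
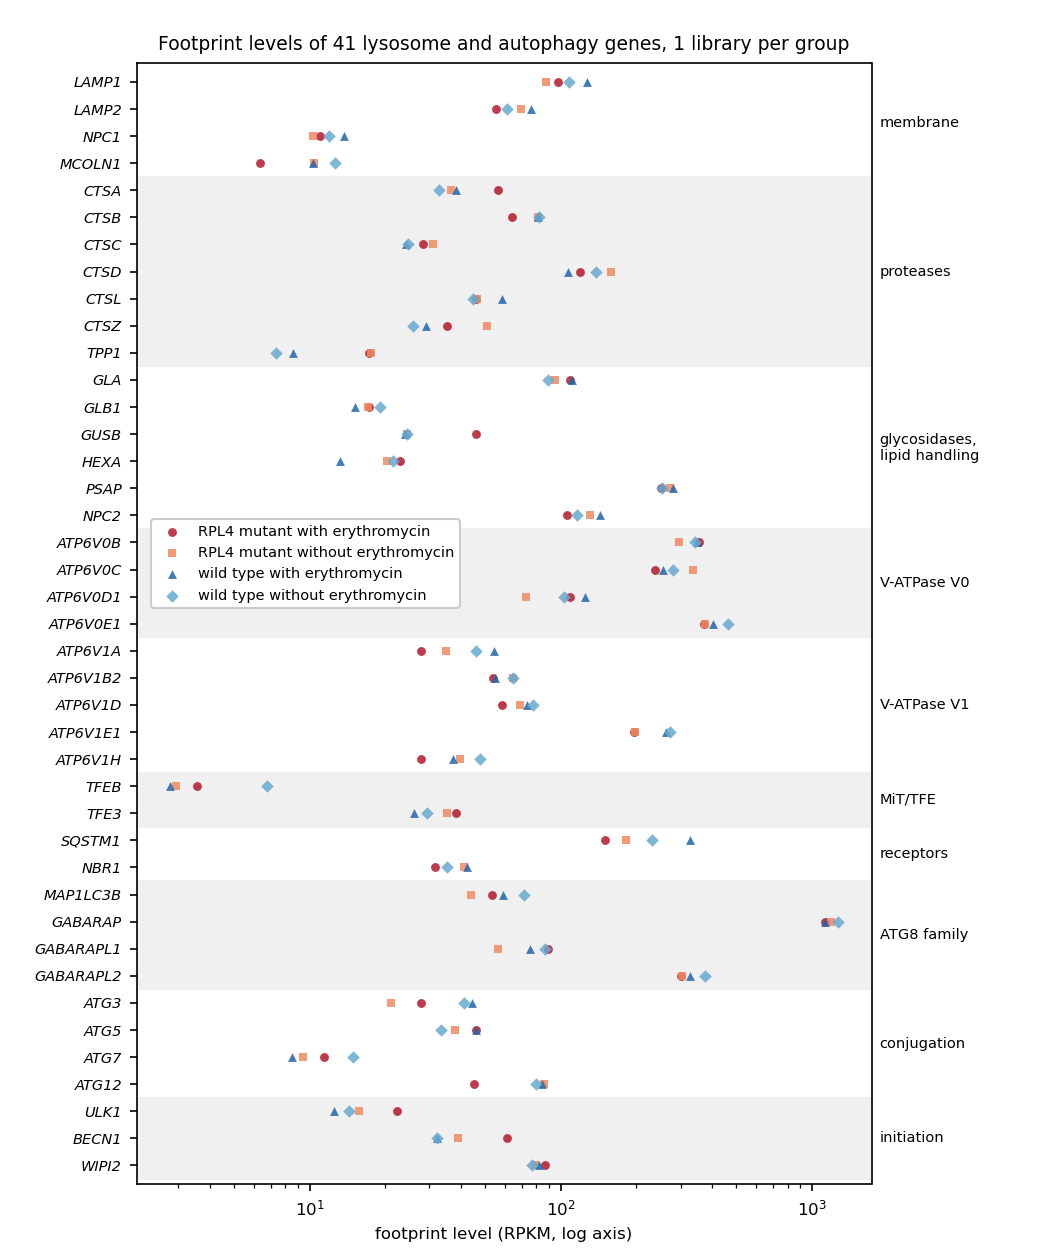
Deposited RPKM (log axis) of the 41 lysosome and autophagy genes in the 4 libraries, 1 point per library, grouped by role. Levels run from 2.78 RPKM (TFEB in wild type with erythromycin) to 1272 RPKM (GABARAP in wild type without it), and for most genes the 4 points lie close together.

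Among the 4 lysosomal membrane proteins, LAMP1, a heavily glycosylated coat protein, had 97.1 and 87.1 RPKM in the mutant with and without erythromycin, against 127 and 108 RPKM in wild type with and without it. Both mutant libraries were below both wild type libraries. Mutant over wild type gave a log2 ratio of −0.45 [−0.76, −0.16] with the drug and −0.28 [−0.68, 0.10] without it. LAMP2, its relative, had 55.4 and 69.6 RPKM in the mutant with and without erythromycin. In wild type with and without it LAMP2 had 76.3 and 61.4 RPKM, so that the genotypes overlapped. Its mutant over wild type ratio was −0.52 [−0.94, −0.13] with erythromycin and 0.20 [−0.26, 0.65] without it. NPC1, the membrane protein that exports cholesterol, had 11.0 and 10.3 RPKM in the mutant with and without the drug and 13.7 and 12.0 RPKM in wild type with and without it (mutant over wild type with the drug −0.35 [−0.91, 0.14]). MCOLN1, the calcium channel TRPML1, had 6.35 and 10.4 RPKM in the mutant with and without the drug and 10.3 and 12.6 RPKM in wild type with and without it, on as few as 11 reads (−0.69 [−1.86, 0.21] with the drug). With erythromycin the 4 ratios of mutant over wild type had a median of −0.48, and all were below 0, also when libraries were scaled to the deposited values or to their sum. The counting interval was below 0 for 2 of them, LAMP1 and LAMP2, against 16.9% of all transcripts, and held 0 for NPC1 and MCOLN1.

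For the 7 proteases the ratios of mutant over wild type without the drug had a median of 0.23, and all 7 were above 0 (CTSB, at 0.00, was below 0 without centring). The counting interval was above 0 for 2 of 7 (CTSZ and TPP1), against 9.49% of all transcripts, and held 0 for the other 5. With the drug 5 of 7 ratios were above 0 (median 0.15), and the interval was above 0 for 2 (CTSA and TPP1), against 16.1% of all transcripts. CTSD, an aspartic protease and the most abundant of them, had 119 and 159 RPKM in the mutant with and without erythromycin, against 107 and 138 RPKM in wild type with and without it. It was lower with the drug in both genotypes, by log2 ratios of −0.46 [−0.82, −0.10] in the mutant and −0.35 [−0.55, −0.15] in wild type. CTSB, a cysteine protease, had 64.1 and 81.1 RPKM in the mutant with and without the drug and 80.9 and 82.3 RPKM in wild type with and without it, so the mutant with erythromycin stood lowest. CTSL, another cysteine protease, had 46.2 RPKM in the mutant both with and without the drug, against 58.2 and 44.8 RPKM in wild type with and without it.

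TPP1, a tripeptidyl peptidase of the lysosome lumen (chromosome 11, 6612763 to 6619485, GRCh38), was the member furthest above wild type without erythromycin. It had 17.3 and 17.6 RPKM (29 and 18 reads) in the mutant with and without the drug, against 8.56 and 7.37 RPKM (37 and 37 reads) in wild type with and without it. Both mutant libraries were above both wild type libraries, with log2 ratios of 0.87 [0.20, 1.69] with erythromycin and 1.18 [0.38, 2.13] without it. The 38.4% of its coding windows that occur also in another annotated gene apply here. CTSZ, a carboxypeptidase, had 35.3 and 50.8 RPKM in the mutant with and without the drug, against 29.2 and 25.9 RPKM in wild type with and without it. Its mutant over wild type ratio was 0.20 with erythromycin and 0.97 [0.31, 1.65] without it. The remaining proteases, CTSA (the protective protein of the sialidase complex) and CTSC (which activates granule proteases), lay between 24.2 and 56.5 RPKM. CTSA was highest in the mutant with erythromycin, at 56.5 RPKM, against 38.4 RPKM in wild type with it (0.48 [0.09, 0.89]).

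Glycosidases and lipid-handling proteins showed no common direction by genotype: 3 of 6 were above 0 with erythromycin and 4 of 6 without it. PSAP, the precursor of the saposins that help degrade sphingolipids, was the most abundant, with 249.7 and 274 RPKM in the mutant with and without the drug, against 281 and 252 RPKM in wild type with and without it. The order of the libraries without and with the drug was opposite in the genotypes. NPC2, which hands cholesterol to NPC1, had the same pattern, with 106 and 131 RPKM in the mutant with and without erythromycin and 144 and 116 RPKM in wild type with and without it. GLA, the alpha-galactosidase, had 109 and 94.9 RPKM in the mutant with and without the drug and 110.4 and 89.4 RPKM in wild type with and without it, and the drug's interval was above 0 in wild type and held 0 in the mutant.

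GUSB, the beta-glucuronidase, had 45.8 RPKM in the mutant with erythromycin, while its other 3 libraries lay between 24.0 and 24.5 RPKM. The log2 ratio was 0.84 [0.46, 1.28] over wild type with the drug and 0.82 [0.23, 1.51] over the mutant without it. HEXA, a beta-hexosaminidase subunit, was lowest in wild type with erythromycin, at 13.3 RPKM, against 21.4 RPKM in wild type without it and 22.9 and 20.4 RPKM in the mutant with and without it. GLB1, the beta-galactosidase, stayed between 15.2 and 19.1 RPKM.

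Of the 9 V-ATPase subunits, 2 had a counting interval of mutant over wild type below 0 with erythromycin (ATP6V1A and ATP6V1E1), against 16.9% of all transcripts. Without it there were 2 as well (ATP6V0D1 and ATP6V1E1), against 9.29% of all, and the other 7 intervals held 0 in each treatment. The ratio itself was below 0 for 9 of 9 with the drug (median −0.27) and for 7 of 9 without it (median −0.23). Of 8 further V-ATPase genes that are no members, 5 were below and 3 above 0 in each treatment, with medians of −0.05 with the drug and −0.19 without it. Their intervals were below 0 for 1 with the drug and for 0 without it, and above 0 for 0 in either. Scaling to the sum of shared transcripts left 7 of 9 below 0 with the drug, with ATP6V0B (also without centring) and ATP6V1B2 turning to above 0. In the V0 sector, ATP6V0E1, a small membrane subunit, had 372 and 377 RPKM in the mutant with and without the drug, against 406 and 463 RPKM in wild type with and without it. ATP6V0B, a proteolipid of the rotor ring, had 356 and 295 RPKM in the mutant with and without the drug and 349 and 344 RPKM in wild type with and without it, so the genotypes overlapped. ATP6V0C, the other ring proteolipid, had 237 and 336 RPKM in the mutant with and without erythromycin, against 256 and 281 RPKM in wild type with and without it. ATP6V0D1, which joins the sectors, was higher with the drug in both genotypes: 108 and 73.0 RPKM in the mutant with and without it (0.51 [0.04, 1.01]) and 125 and 103 RPKM in wild type with and without it (0.29 [0.08, 0.51]).

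In the V1 sector, the catalytic subunit ATP6V1A (chromosome 3, 113747019 to 113812056, GRCh38) had 27.7 and 34.8 RPKM in the mutant with and without erythromycin, against 54.5 and 46.2 RPKM in wild type with and without it. The genotypes did not overlap, and the log2 ratio was −1.01 [−1.50, −0.60] with the drug and −0.37 [−0.91, 0.11] without it. ATP6V1E1, a stalk subunit, had 195 and 197 RPKM in the mutant with and without the drug, against 263 and 273 RPKM in wild type with and without it. Its ratio was −0.49 [−0.78, −0.21] with erythromycin and −0.45 [−0.80, −0.11] without it, of about equal size in both treatments. ATP6V1D, the rotor shaft, had 58.2 and 68.9 RPKM in the mutant with and without the drug and 73.6 and 77.5 RPKM in wild type with and without it. ATP6V1B2, the other subunit of the catalytic ring, lay between 53.7 and 64.8 RPKM with ratios of mutant over wild type of −0.09 with and 0.02 without the drug. ATP6V1H, a regulatory subunit, had 27.7 and 39.9 RPKM in the mutant with and without the drug and 37.2 and 47.8 RPKM in wild type with and without it; the drug's interval was below 0 in wild type and held 0 in the mutant.

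Of the MiT/TFE factors, TFE3 had 38.4 and 35.4 RPKM in the mutant with and without erythromycin, against 26.0 and 29.3 RPKM in wild type with and without it. The genotypes did not overlap, and the ratio was 0.48 [0.04, 0.95] with the drug and 0.29 without it. TFEB had 3.58 and 2.94 RPKM (6 and 3 reads) in the mutant with and without the drug. In wild type with and without it TFEB had 2.78 and 6.79 RPKM (12 and 34 reads). These reads were too few for a comparison of the genotypes. Within wild type its level was lower with the drug. The filter kept TFEB out of the 2-fold counts, and with a filter at 1 RPKM or none it was past 2-fold there. The 9 genes with a promoter word shown above went both ways between the genotypes in the presence of erythromycin, with ratios below 0 for ATG3, LAMP1, MCOLN1, ATP6V0B, ATP6V0C and ATP6V0D1 and above 0 for CTSA, CTSD and TPP1. The counting interval was off 0 for ATG3, LAMP1, CTSA and TPP1 among them. ATP6V0B (−0.04) and CTSD (0.09) were near 0.

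SQSTM1 (chromosome 5, 179806398 to 179838078, GRCh38), the receptor p62, showed the widest separation of the genotypes among the members with erythromycin. It had 149.9 and 181 RPKM (197 and 145 reads) in the mutant with and without the drug, against 326 and 232 RPKM (1103 and 910 reads) in wild type with and without it. Both mutant libraries were below both wild type libraries. The mutant over wild type ratio was −1.18 [−1.41, −0.96] with erythromycin, a 2.26-fold lower level, and −0.33 [−0.59, −0.08] without it. Erythromycin over none was −0.33 [−0.64, −0.01] in the mutant and 0.51 [0.38, 0.64] in wild type. SQSTM1 took 5.33% and 6.33% of all member reads in the mutant with and without the drug, against 10.5% and 7.70% in wild type with and without it. NBR1, the related receptor, had 31.6 and 41.1 RPKM in the mutant with and without erythromycin and 42.2 and 35.2 RPKM in wild type with and without it. Its level also ran in opposite directions with the drug, but the genotypes overlapped.

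The start of the coding sequence is printed for the 3 members at or past 2-fold between the genotypes in a treatment (GENCODE 29, GRCh38, first 60 bases, start codon in capitals), to fix the coding sequence their values belong to. The start of TPP1 encodes a signal peptide, and SQSTM1 and ATP6V1A are made in the cytosol:
SQSTM1: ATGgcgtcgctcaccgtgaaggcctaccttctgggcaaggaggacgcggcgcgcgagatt
ATP6V1A: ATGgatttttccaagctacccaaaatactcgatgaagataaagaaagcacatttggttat
TPP1: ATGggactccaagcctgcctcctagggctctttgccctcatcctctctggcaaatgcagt

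The ATG8 family, the ubiquitin-like proteins that coat autophagosomes, was led by GABARAP, with 1132 and 1187 RPKM in the mutant with and without erythromycin, against 1124 and 1272 RPKM in wild type with and without it. The genotypes overlapped and differed by −0.05 with the drug and −0.07 without it. GABARAPL2 had 301 and 304 RPKM in the mutant with and without the drug, against 326 and 375 RPKM in wild type with and without it. GABARAPL1 had 89.0 and 56.3 RPKM in the mutant with and without the drug and 75.4 and 86.4 RPKM in wild type with and without it. MAP1LC3B, the LC3B widely used to mark autophagosomes, had 53.3 and 43.8 RPKM (20 and 10 reads) in the mutant with and without erythromycin, against 59.0 and 71.4 RPKM (57 and 80 reads) in wild type with and without it. Without the drug 4 of 4 ratios of mutant over wild type were below 0 (median −0.43; GABARAP turned to above 0 under scaling to the sum), but each of the 4 counting intervals held 0.

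Of the conjugation machinery, ATG3, the enzyme that transfers ATG8 proteins to lipid, had 27.7 and 21.0 RPKM (26 and 12 reads) in the mutant with and without erythromycin, against 44.3 and 41.4 RPKM (107 and 116 reads) in wild type with and without it. Both mutant libraries were below both wild type libraries, with ratios of −0.72 [−1.42, −0.11] with the drug and −0.92 [−1.95, −0.09] without it. ATG12, the ubiquitin-like partner of ATG5, had 45.2 RPKM (19 reads) in the mutant with erythromycin, while the other 3 libraries lay between 79.7 and 86.0 RPKM. Its ratio was −0.94 [−1.76, −0.23] over wild type with the drug and −0.97 [−1.95, −0.03] over the mutant without it. ATG5 had 46.2 and 38.0 RPKM in the mutant with and without the drug and 45.8 and 33.4 RPKM in wild type with and without it; the drug's interval was above 0 in wild type and held 0 in the mutant. ATG7, the activating enzyme, had 11.4 and 9.40 RPKM in the mutant with and without the drug and 8.52 and 14.9 RPKM in wild type with and without it.

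The 3 initiation and nucleation genes had ratios of mutant over wild type above 0 in both treatments, under each scaling; the counting interval was above 0 for BECN1 and ULK1 with the drug (all transcripts 16.1%) and for none of the 3 without it (all 9.49%). BECN1, a subunit of the lipid kinase complex that nucleates the membrane, had 61.0 and 39.1 RPKM in the mutant with and without erythromycin, against 32.1 and 32.2 RPKM in wild type with and without it. Its ratio was 0.84 [0.43, 1.29] with the drug and 0.30 without it. ULK1, the initiating kinase, had 22.3 and 15.7 RPKM in the mutant with and without the drug, against 12.5 and 14.3 RPKM in wild type with and without it. Its ratio was 0.72 [0.31, 1.23] with erythromycin and 0.15 without it. WIPI2, which recruits the conjugation machinery to the membrane, lay between 77.1 and 86.3 RPKM and did not separate the genotypes (0.01 with and 0.06 without the drug).

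**Figure D2:**
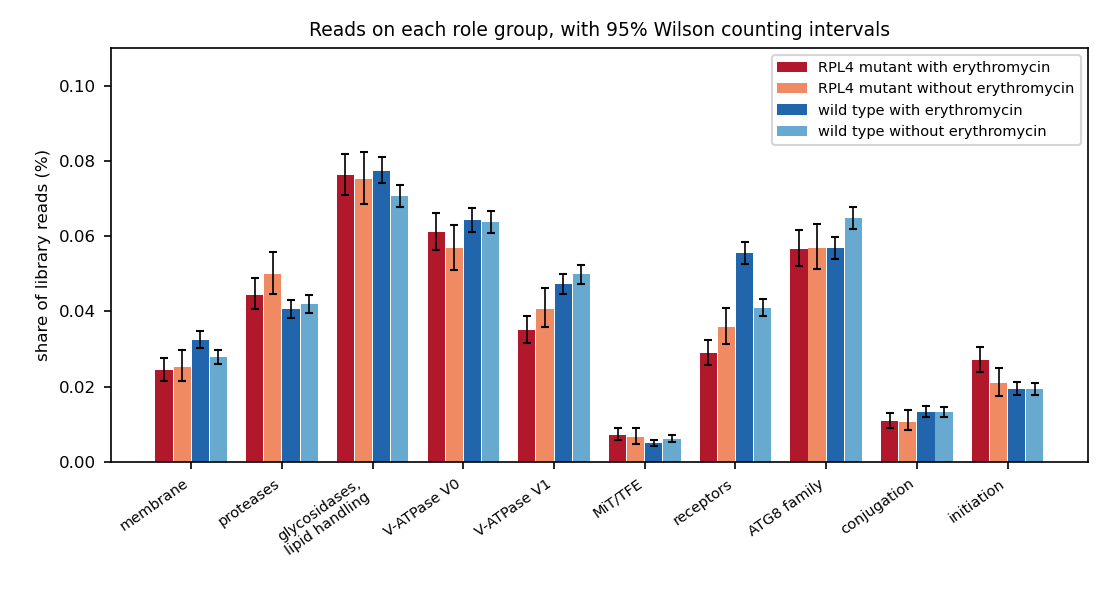
Share of all reads (percent) taken by each role group in each library, with 95% Wilson intervals for counting error. Autophagy receptors took 0.0290% and 0.0359% in the mutant with and without erythromycin against 0.0554% and 0.0409% in wild type with and without it, and initiation genes took 0.0271% and 0.0210% in the mutant and 0.0195% and 0.0194% in wild type.

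The comparison of the genotypes asks which footprint levels differ when RPL4 is altered. Without erythromycin the 40 members were centred like all transcripts (median 0.01), with 21 above and 19 below 0. Only TPP1 was at or past 2-fold, 1 of 40, against 8.60% of all transcripts kept (5.29% higher, 3.32% lower). The counting interval was off 0 for 6 of 40 members, against 18.8% of all transcripts with recovered reads: above 0 for CTSZ and TPP1 (all transcripts 9.49%) and below 0 for ATG3, ATP6V0D1, ATP6V1E1 and SQSTM1 (all 9.29%).

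With erythromycin the median of the 40 members was −0.18, with 26 below and 14 above 0, while the median of all transcripts is 0 by construction. ATP6V1A and SQSTM1 were at or past 2-fold lower, 2 of 40, and 0 of 40 were at or past 2-fold higher. Of all transcripts 9.28% were past 2-fold, 7.02% higher and 2.26% lower. The counting interval was off 0 for 17 of 40 members, against 33.0% of all: above 0 for 7 (BECN1, CTSA, GUSB, HEXA, TFE3, TPP1 and ULK1; all transcripts 16.1%) and below 0 for 10 (ATG3, ATG12, ATP6V1A, ATP6V1E1, LAMP1, LAMP2, NBR1, NPC2, PSAP and SQSTM1; all 16.9%). The members' median was −0.03 when libraries were scaled to the sum of shared transcripts, a scaling that moved the median of all transcripts by 0.14.

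**Figure D3:**
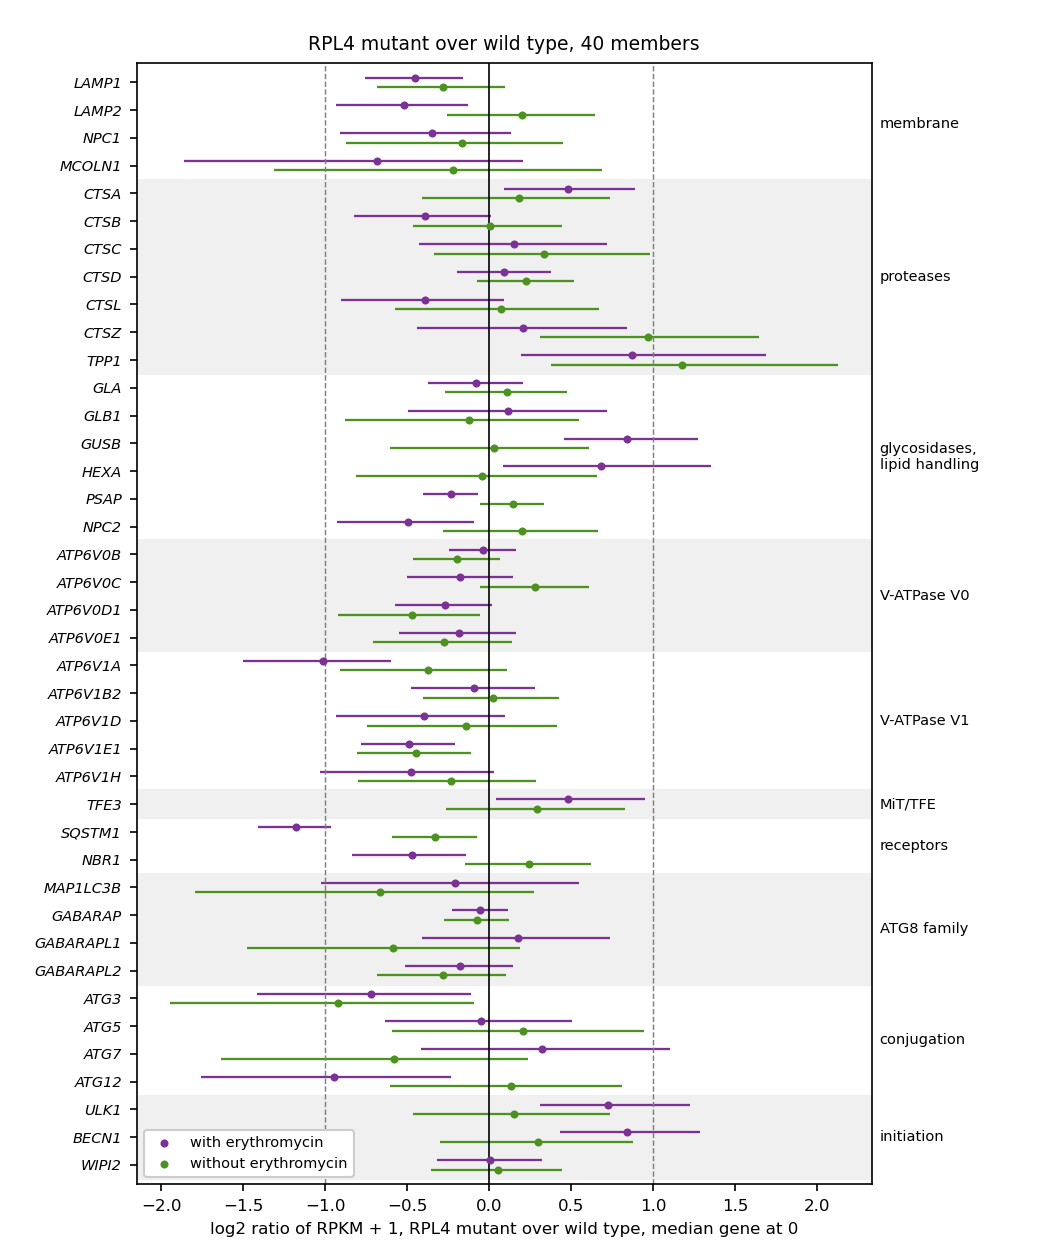
Log2 ratio of the RPL4 mutant over wild type for the 40 members kept, with and without erythromycin, with 95% counting intervals; dashed lines mark 2-fold and 0 is the median transcript. SQSTM1 (−1.18 with the drug) and ATP6V1A (−1.01) reach 2-fold lower, and TPP1 (1.18 without the drug) reaches 2-fold higher.

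Across the treatments, both mutant libraries lay below both wild type libraries in RPKM for 10 of 40 members, against 21.7% of all transcripts: ATG3, ATP6V0E1, ATP6V1A, ATP6V1D, ATP6V1E1, GABARAPL2, LAMP1, MAP1LC3B, NPC1 and SQSTM1. They lay above for 7, against 23.1% of all: BECN1, CTSC, CTSZ, GUSB, TFE3, TPP1 and ULK1. Both shares were near those of all transcripts. Counting intervals were below 0 in both treatments for ATG3, ATP6V1E1 and SQSTM1 (all transcripts 4.87%) and above 0 in both for TPP1 (all 4.06%). The sign of the ratio was the same in both treatments for 25 of 40 members (62.5%; 10 above and 15 below 0), against 59.3% of all transcripts, and Spearman's rho over the 40 genes was 0.41, against 0.25 over all. These are descriptions across genes that share the same 4 libraries and their depth.

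The additive limma model, fitted to all 9612 transcripts with Benjamini-Hochberg adjustment over them, tests genotype over both treatments, with only 1 residual degree of freedom. It passed 0 of 40 members at an adjusted p of 0.05, against 1.95% of all transcripts, and 5 of 40 at an unadjusted p of 0.05, against 12.4% of all. Of these 5, 1 was higher in the mutant (all transcripts 6.89%) and 4 were lower (all 5.52%). They were SQSTM1, with a log2 effect of −0.75 (SE 0.240, limma adjusted p = 0.159), TPP1 at 1.03 (SE 0.344, adjusted p = 0.179), ATG3 at −0.82 (SE 0.274, adjusted p = 0.180), ATP6V1A at −0.69 (SE 0.278, adjusted p = 0.306) and ATP6V1E1 at −0.46 (SE 0.212, adjusted p = 0.386). Under other settings the limma adjusted p of SQSTM1 ran between 0.0249 and 0.478.

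The comparison of cells with and without erythromycin asks which footprint levels differ with the drug. In the mutant the 40 members had a median of −0.06, with 17 above and 23 below 0, and 0 of 40 at or past 2-fold, against 9.61% of all transcripts. The counting interval was off 0 for 6 of 40, against 14.9% of all: above 0 for ATP6V0D1 and GUSB (all transcripts 7.21%) and below 0 for ATG12, ATP6V0C, CTSD and SQSTM1 (all 7.69%). Among members averaging at least 20 RPKM, GABARAPL1 (0.60 [−0.28, 1.57]) and BECN1 (0.58 [−0.02, 1.23]) followed GUSB at the high end, and CTSZ and ATP6V1H (each −0.56) followed ATG12 at the low end; the intervals of these 4 held 0.

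In wild type the median was 0.00, with 20 above and 20 below 0, and again 0 of 40 were at or past 2-fold, against 3.27% of all transcripts. The deeper libraries gave narrower intervals, and these were off 0 for 15 of 40 members, against 28.1% of all transcripts. They were above 0 for 10 (ATG5, ATP6V0D1, CTSL, GLA, LAMP1, LAMP2, NBR1, NPC2, PSAP and SQSTM1; all transcripts 14.2%) and below 0 for 5 (ATG7, ATP6V1H, CTSD, GABARAP and HEXA; all 13.9%). The highest among members averaging at least 20 RPKM were SQSTM1 (0.51 [0.38, 0.64]), ATG5 (0.46 [0.03, 0.91]) and CTSL (0.39 [0.05, 0.74]), and the lowest were CTSD (−0.35), ATP6V1H (−0.34 [−0.67, −0.03]) and MAP1LC3B (−0.26). All 4 ATG8 members were below 0 (median −0.18), under each scaling, but the interval held 0 for 3 of them.

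**Figure D4:**
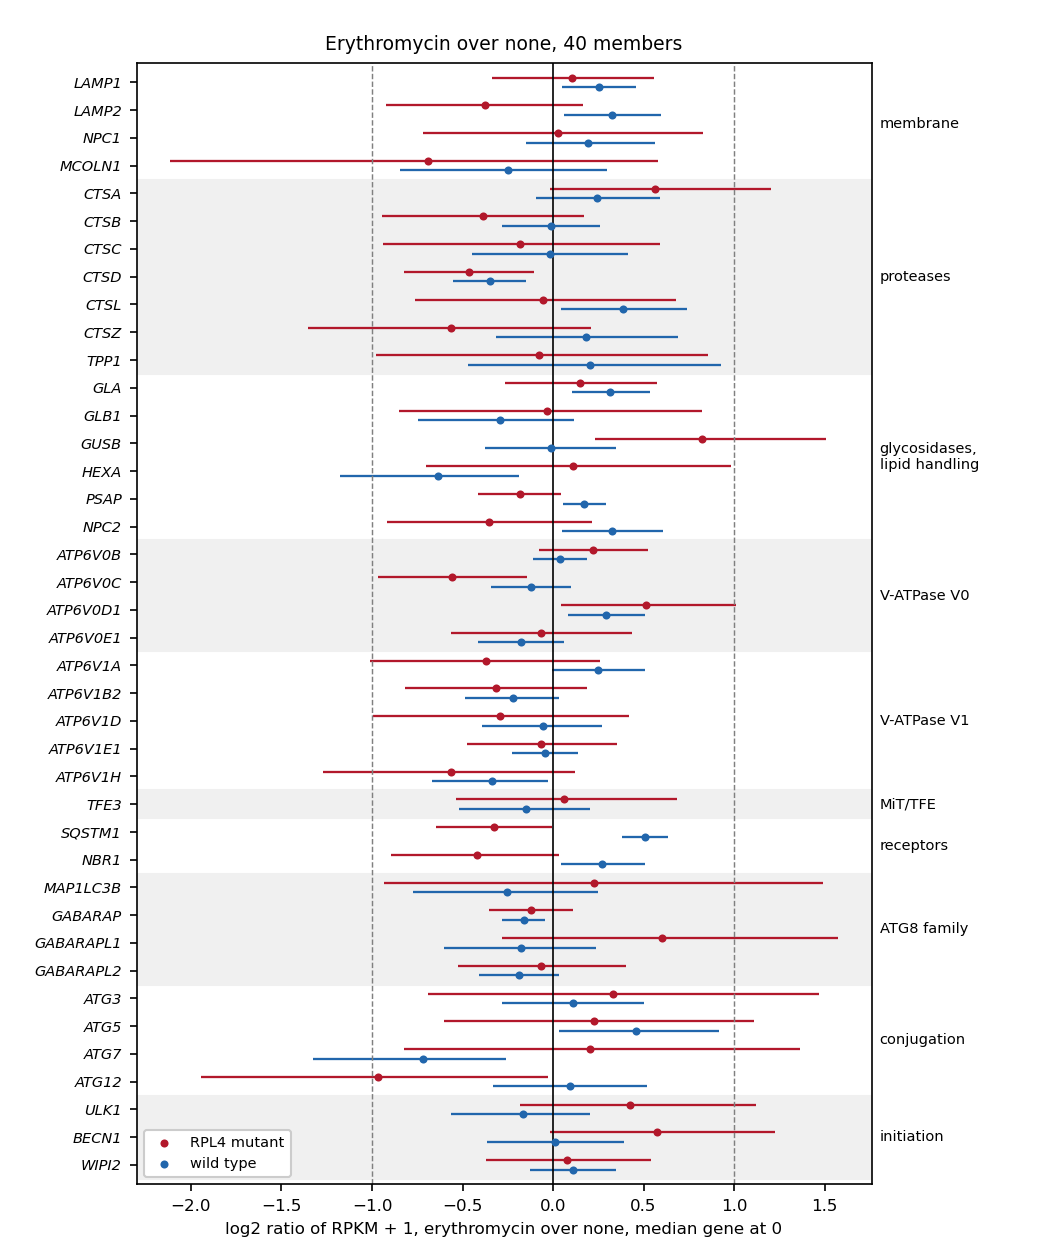
Log2 ratio of erythromycin over none for the 40 members kept, in the RPL4 mutant and in wild type, with 95% counting intervals; dashed lines mark 2-fold. No point reaches 2-fold, and the mutant intervals are wider because its libraries held fewer reads.

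Most members stayed within a log2 ratio of 0.5 of the median transcript: 75% with the drug in the mutant and 92.5% in wild type, against 67.6% and 82.3% of all transcripts. The median member had more reads than the median of all transcripts in each library, so these shares are not matched for depth. Only ATP6V0D1 had counting intervals above 0 in both genotypes (all transcripts 1.64%), and only CTSD had them below 0 in both (all 1.40%). In RPKM, both erythromycin libraries lay above both libraries without it for 6 of 40 members (ATG5, ATP6V0B, ATP6V0D1, CTSA, GLA and WIPI2; all transcripts 15.2%) and below for 7 (ATP6V0C, ATP6V1B2, ATP6V1H, CTSB, CTSD, GABARAP and MCOLN1; all 13.1%). The sign of the response was the same in both genotypes for 23 of 40 members (57.5%), against 50.6% of all, and Spearman's rho between the genotypes over the 40 genes was 0.01, against 0.03 over all transcripts. For erythromycin over both genotypes limma passed 0 of 40 members at an adjusted p of 0.05 (lowest limma adjusted p = 0.913), against 0.250% of all transcripts, and 0 of 40 at an unadjusted p of 0.05, against 6.18% of all.

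The difference between the responses, mutant minus wild type, had a median of −0.14 over the 40 members, with 16 above and 24 below 0. ATG12 was the only member at or past 2-fold, at −1.06 [−2.04, −0.11], against 13.9% of all transcripts. The interval was off 0 for 7 of 40, against 19.4% of all. It was below 0 for 6 (all transcripts 10.7%): ATG12, SQSTM1 at −0.84 [−1.17, −0.51], LAMP2 at −0.71 [−1.30, −0.14], NBR1 at −0.70 [−1.21, −0.21], NPC2 at −0.68 [−1.29, −0.09] and PSAP at −0.36 [−0.62, −0.11]. It was above 0 for GUSB alone, at 0.83 [0.15, 1.53] (all 8.64%). GABARAPL1 (0.77), CTSZ (−0.75) and BECN1 (0.56) were among the furthest from 0 of the members averaging at least 20 RPKM, with intervals that held 0. All 4 membrane proteins were below 0 and all 4 ATG8 members above 0, under each scaling. The interval was below 0 for 1 membrane protein, LAMP2, and held 0 for the other 3 and for all 4 ATG8 members. With the median of all transcripts at 0 by construction, as many transcripts lie above 0 as below.

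**Figure D5:**
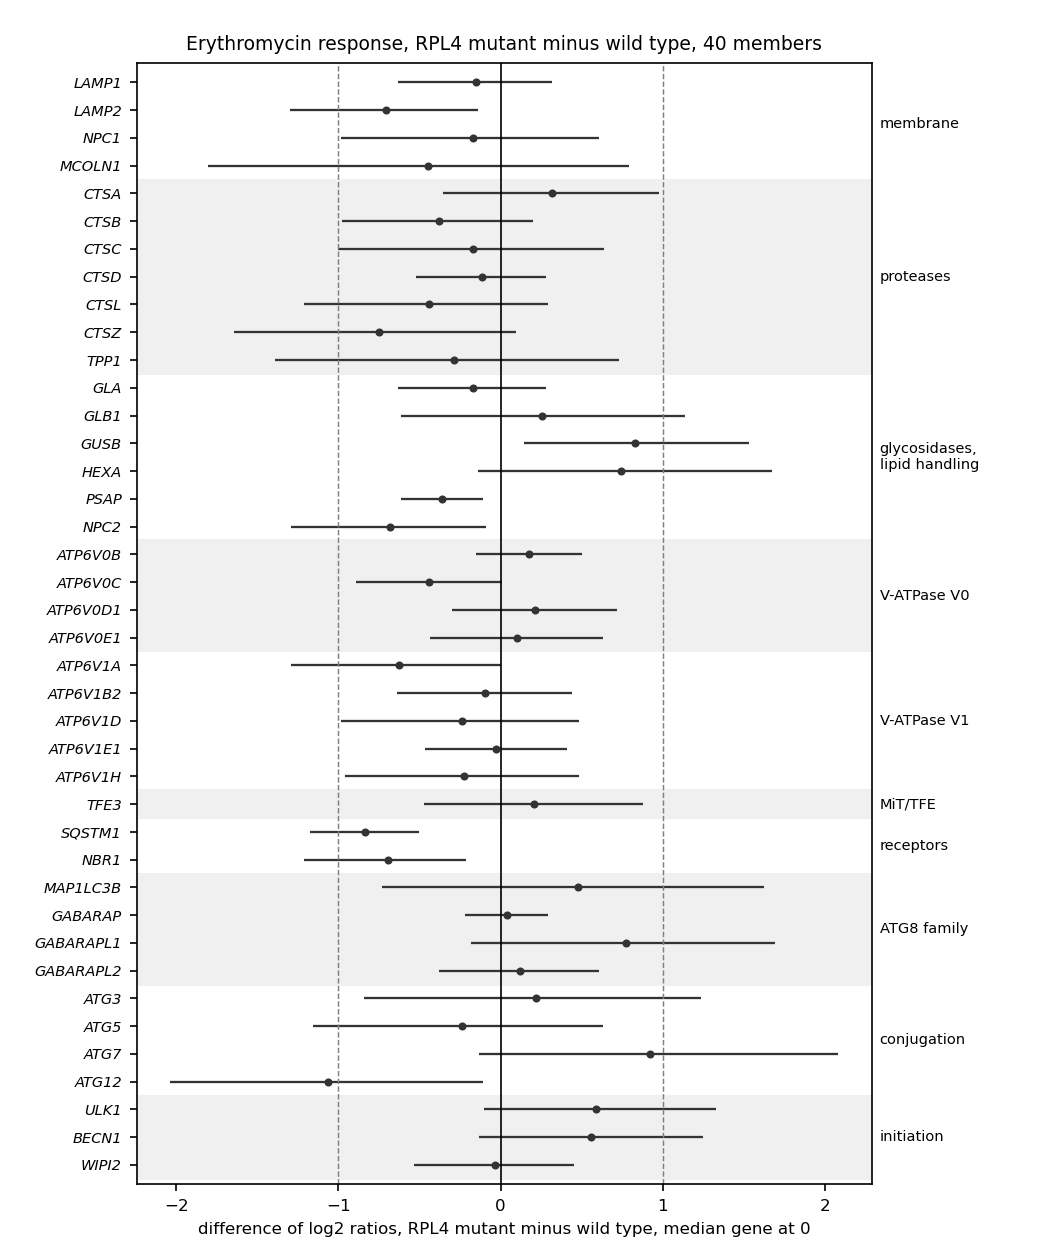
Difference of the erythromycin log2 ratios, RPL4 mutant minus wild type, for the 40 members kept, with 95% counting intervals; dashed lines mark 2-fold. Intervals lie wholly below 0 for ATG12, SQSTM1, LAMP2, NBR1, NPC2 and PSAP and wholly above 0 for GUSB.

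Further genes of the pathway were taken as 4 lists with 100 genes (other V-ATPase subunits, other lysosomal proteins, other autophagy factors and lysosomal mTORC1 signalling), of which 87 passed the filter. Their medians were 0.08 for mutant over wild type with erythromycin and 0.02 without it, and 0.02 and −0.0049 for erythromycin over none in the mutant and in wild type. At or past 2-fold were 4 of 87 for mutant over wild type with erythromycin (all transcripts 9.28%) and 1 of 87 without it (all 8.60%). For erythromycin over none they were 4 of 87 in the mutant (all 9.61%) and 2 of 87 in wild type (all 3.27%). The cathepsin gene CTSF was the only gene of the lists that passed limma at an adjusted p of 0.05, 1 of 87 for each factor, against 1.95% of all transcripts for the mutant and 0.250% for erythromycin. It had 434 and 186 RPKM in the mutant with and without erythromycin, against 110.0 and 27.6 RPKM in wild type with and without it. The log2 ratio of erythromycin over none for CTSF was 1.16 in the mutant and 1.97 in wild type. The difference of these responses was −0.82 [−1.23, −0.46], which the additive model leaves out. Its limma effect was 2.33 (adjusted p = 3.06e-05) for the mutant and 1.57 (adjusted p = 0.0112) for erythromycin, and it was past 2-fold higher in all 4 single comparisons.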

How the data were processed

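Ribosome footprints of HEK293 cells were measured in 4 libraries, 1 per group of genotype and treatment. The authors deposited 1 RPKM value per transcript and library; per the submitters' processing notes cutadapt, STAR and GRCh38 were used, without roles or versions, and no source used here names the read counter. Each file lists only transcripts above 0, so an absent transcript was read as 0. RPKM times coding length (GENCODE 29) gave whole reads, within 0.001 reads, for 99.2% of matched transcripts in each library, and for all 41 members.

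Values were analysed as log2(RPKM + 1) for transcripts averaging at least 5 RPKM, and each log2 ratio was centred on their median. Counting intervals (95%) are exact Clopper-Pearson intervals for the share of a gene's reads in a pair of libraries. For differences of ratios they use a normal approximation with 0.5 reads added, and read shares have Wilson intervals. Members were counted at 2-fold and by intervals off 0, beside all transcripts. limma 3.58.1 (R 4.3.3) tested genotype and treatment as additive factors over all 4 libraries, each first centred on its median deviation, with a variance trend and Benjamini-Hochberg adjustment over all 9612 transcripts. It has 1 residual degree of freedom, the interaction, and is exploratory. Its script was run on simulated data with counting noise alone and no interaction. That run does not cover the spread between cultures. For a coding length of 1 kb, a count of 0 would allow up to 3 reads, which is 3.02 RPKM in the mutant with erythromycin, 4.96 RPKM in the mutant without it, 1.17 RPKM in wild type with it and 1.01 RPKM in wild type without it.

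Nothing in the labels says how cultures were replicated, and p-values reflect only the spread among these libraries. Members, role groups and further lists were chosen with earlier results of these data known. Values in every library are given by rule: up to 3 members of each role group with the highest mean RPKM, members past 2-fold with an interval off 0, the 3 highest and 3 lowest of each comparison among members averaging at least 20 RPKM, members with intervals off 0 on the same side in both arms of a factor, and genes past limma. Other members were added to account for all. Alternatives changed the pseudocount, the filter on low values, the scaling, a trend with coding length and the limma model.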

Additional observations from a re-analysis of the deposited data

Results flagged for a closer look

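For 7 of 40 members (17.5%) the erythromycin ratio had opposite signs in the genotypes and the counting interval of the difference was off 0; the same held for 16.1% of all transcripts kept with recovered reads. The difference of the log2 responses, mutant minus wild type, was −1.06 for ATG12, −0.84 for SQSTM1, −0.71 for LAMP2, −0.70 for NBR1, −0.68 for NPC2, −0.36 for PSAP and 0.83 for GUSB. For the first 6 the ratio was below 0 in the mutant and above 0 in wild type, and for GUSB it was 0.82 in the mutant and −0.01 in wild type. The lowest read count behind these genes was 19 for ATG12, in the mutant with erythromycin. With 1 library per genotype and treatment the difference was not tested against replicates.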

How the results depend on the processing

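The alternatives left 103 of 122 medians and counts over the members within their tolerance and moved 19. A change of sign was not scored for these. The members' median for the mutant over wild type without erythromycin was 0.013 as reported and −0.012 without centring. For erythromycin in wild type it was 0.0019 as reported and −0.013 without centring. The 2-fold count for the mutant over wild type without erythromycin was 1 as reported. It was 0 with a pseudocount of 5 RPKM or at least 20 expected reads. It was 2 (CTSZ and TPP1) when scaled to the sum of shared transcripts or detrended on coding length. The filter at 20 RPKM left the count at 1 but removed TPP1 (mean 12.7 RPKM), so another gene took its place. With erythromycin the count was 2 as reported. It was 1 (SQSTM1) with a pseudocount of 5 RPKM, a filter at 20 RPKM, at least 20 expected reads or no centring. Over all alternatives it ran from 1 to 3, and only its size was compared, not which genes made it up. ATP6V1A ran from −1.07 to −0.87 over them. The members' median with erythromycin, mutant over wild type, was −0.18 as reported, −0.073 with a filter at 20 RPKM and −0.034 when scaled to the sum. For erythromycin in wild type the count was 0 as reported and 1 (TFEB) with a filter at 1 RPKM or none. For the difference of responses it was 1 as reported, 0 with a pseudocount of 5 RPKM, at least 20 expected reads or no centring, and 2 (ATG12 and TFEB) with a filter at 1 RPKM or none. limma for the mutant passed 0 members as reported and 1 (SQSTM1) with no filter (adjusted p = 0.0249) or at least 20 expected reads (adjusted p = 0.0445). In an alternative chosen after seeing the data, the summed share of the members in the mutant with erythromycin was 0.903 of that in wild type with it, and 0.954 without SQSTM1, with intervals that then overlapped. The overlap is no test of a difference. The filters change how many members and transcripts are tested; the cause of the other moves was not tested. Of 351 values for single genes, 349 kept their sign or stayed inside their counting interval, and the other 2 are the limma calls of SQSTM1. Depth limited the mutant libraries most. No paired analysis was possible because the labels give no replicate numbers and each group has 1 library; for the same reason no replicate could be left out.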

Other observations

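Among the 87 further genes of the pathway, counting intervals of the mutant over wild type were above 0 in both treatments for 6 (all transcripts 4.06%) and below 0 in both for 1 (all 4.87%). Besides CTSF these were chosen after their values were seen. LAMTOR4, a subunit of the Ragulator complex that anchors mTORC1 at the lysosome, had 467 and 471 RPKM in the mutant with and without erythromycin, against 267 and 299.8 RPKM in wild type with and without it. The tetraspanin CD63 had 557 and 531 RPKM in the mutant with and without the drug and 469.9 and 413 RPKM in wild type with and without it. RB1CC1, a scaffold of the ULK1 complex, UVRAG, a partner of Beclin 1, and SGSH, a sulfatase, were lower in level, with 9.68 to 20.7 RPKM in the mutant and 4.93 to 10.6 RPKM in wild type. VCP, a segregase that extracts ubiquitinated proteins, was the lower one, with 118 and 128 RPKM in the mutant with and without erythromycin, against 224 and 215 RPKM in wild type with and without it. None of these but CTSF passed limma at an adjusted p of 0.05; the limma adjusted p was 0.0717 for VCP and 0.0821 for LAMTOR4.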
